A study of Mus musculus with 6 samples.

Results

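The START family comprises lipid transfer proteins that share the steroidogenic acute regulatory protein-related lipid transfer domain, a fold with a hydrophobic pocket that holds 1 lipid molecule and carries it between membranes. Members bind phosphatidylcholine, sterols or ceramide, and some join the START domain to a GTPase-activating domain, a thioesterase or a kinesin motor. In brain cells they move lipid from the endoplasmic reticulum to mitochondria, endosomes and other membranes without vesicles. The 10 genes described here were Stard7, Stard3, Stard3nl, Stard4, Stard5, Stard8, Stard9, Stard10, Stard13 and Pctp, out of 22180 genes measured. Each was read through the probe sets whose annotation gives its symbol alone, and where there were several the brightest over all 6 arrays was used. Stard3nl carries the membrane-anchoring MENTAL domain it shares with Stard3 and no START domain of its own, so it is a relative by that anchor and by name.

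RNA was measured in 6 samples of primary hippocampal cells taken from mouse embryos at prenatal day 18 and grown in culture, 1 Affymetrix array per sample. In 3 samples the cells were given an AAV1/2 virus, an adeno-associated vector, that carried a Diras2 knockdown construct, and in 3 control samples the construct was scrambled. All 6 were infected 7 days after seeding and RNA was isolated 7 days after that, so virus and culture age were common to both groups. Diras2 encodes a small GTPase of the Ras superfamily found in brain, and the series asks which transcripts differ when it is knocked down. Mouse strain, promoter of the construct and number of litters are not given in the labels, and with 1 knockdown construct an effect of losing Diras2 and another effect of that construct cannot be told apart.

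Stard7 was chosen by its difference between knockdown and control in these same arrays, where its increase was among the largest, and it brought the family in. Its difference between the groups is therefore given as a description without a test. Stard7 is left out of every count of members called, but not of the counts over all genes. The other 9 genes came in through the family name. For them the test was limma across all 22180 genes with Benjamini-Hochberg adjustment, and an adjusted p under 0.05 counts as a call. Values are log2 levels after RMA, a method that corrects background, gives all arrays 1 distribution and reduces each probe set to 1 value. A difference of 1 on this scale is a doubling, and levels of different genes are not compared because each probe set has its own brightness. In such bulk cultures fewer cells of a type and less RNA per cell cannot be told apart.

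Diras2 had log2 levels of 7.17, 6.23 and 6.08 in the knockdown arrays, against 10.17, 10.17 and 9.76 in the control arrays. The groups lay far apart, in the direction of the labels, with a log2 difference of -3.54 (SE 0.27) and an adjusted p of 0.00063 by limma. An exact two-sided permutation test of a single gene cannot go below 0.1 with 3 against 3 arrays, and Diras2 had that value. Correlations across genes were 0.988 to 0.995 within groups and 0.981 to 0.989 between groups.

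Neuronal markers had per-array mean levels of 10.9 to 11.2 in knockdown and 11.0 to 11.4 in control arrays. Of 7 such genes 1 was called, where 7.80% of all genes were called. That was Snap25, a synaptic fusion protein, lower by 0.51 on the log2 scale (adjusted p = 0.0471), and its call was lost under quantile normalisation, with median centring, with RNA integrity as a covariate (adjusted p = 0.0966) and on removal of any array but control replicate 3. Syn1, a synaptic vesicle protein, had a log2 difference of -0.89 and was called with the replicate number as a block (adjusted p = 0.0125), against an adjusted p of 0.0530 without it. Tubb3, a neuronal tubulin, went the other way with a log2 difference of 0.39, its groups apart, and was not called (adjusted p = 0.106). Of the 7 genes 3 had higher means in knockdown, and the median log2 difference was -0.02. Markers of microglia had per-array means of 4.12 to 4.25 in knockdown and 4.20 to 4.45 in control arrays, and endothelial markers of 3.92 to 4.10 in knockdown and 3.97 to 4.09 in control arrays, with 0 of 6 called in either list. Of 6 inhibitory neuron markers 5 had lower means in knockdown, with a median log2 difference of -0.635, and Lhx6 was called, lower by 2.30-fold (adjusted p = 0.00630). With the block 3 of these 6 were called lower, where 11.7% of all genes were called in either direction. Sst, with a log2 difference of -0.82, and Npy, with -1.24, then had adjusted p-values of 0.00806 and 0.00767. Of 6 measured genes in the oligodendrocyte list 1 was called. That was Pdgfra, higher by 6.96-fold (adjusted p = 0.0104), a call lost without control replicate 2 (adjusted p = 0.0575) and with RNA integrity as a covariate (adjusted p = 0.0514). The other 5 genes of that list were not called, with log2 differences from -0.19 for Olig1 to 0.52 for Olig2. The other marker lists had 0 genes called, and with the block Csf1r of the microglial list (adjusted p = 0.0339) and Lum of the fibroblast list (adjusted p = 0.0442) were called lower. What part cell composition has in the values below was not tested.

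The promoters of Stard7 and of Stard5, the 2 genes whose knockdown arrays lay entirely above the controls, are printed so that the sequence at their starts can be read beside their levels. Both are RefSeq sequence of GRCm38.p6 on the plus strand, from 250 bases before to 50 bases after an annotated start. Capitals mark the CCAAT box and the GC box GGGCGG, searched on both strands, so that CCGCCC is a GC box on the other strand. No base lay in both motifs.
Stard7, chr2:127269979-127270278: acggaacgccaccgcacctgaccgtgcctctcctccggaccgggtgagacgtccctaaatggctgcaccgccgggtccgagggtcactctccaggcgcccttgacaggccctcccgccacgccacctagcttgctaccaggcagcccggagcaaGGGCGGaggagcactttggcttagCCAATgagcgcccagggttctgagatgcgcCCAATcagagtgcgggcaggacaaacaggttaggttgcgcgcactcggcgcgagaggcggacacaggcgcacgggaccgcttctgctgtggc
Stard5, chr7:83631767-83632066: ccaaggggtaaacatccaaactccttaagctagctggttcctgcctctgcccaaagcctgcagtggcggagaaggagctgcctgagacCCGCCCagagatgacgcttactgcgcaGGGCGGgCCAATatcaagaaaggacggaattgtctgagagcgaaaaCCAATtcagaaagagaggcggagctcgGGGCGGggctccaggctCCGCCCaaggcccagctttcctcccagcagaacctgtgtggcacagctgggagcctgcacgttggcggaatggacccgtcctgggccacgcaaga

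The Stard7 promoter held 2 CCAAT boxes and 1 GC box, and the Stard5 promoter 2 CCAAT boxes and 4 GC boxes. Of 32851 promoter windows of the same length 37.4% held CCAAT and 35.7% held GGGCGG. A window was given for 8 members, of which 7 held CCAAT and 6 held GGGCGG, Stard8 and Stard9 among them, so both motifs also stood at genes that did not pass the test. The TATA box TATAAA and the E-box CACGTG, found in 13.6% and 7.15% of all windows, were in 0 of the 8. The sterol regulatory element TCACNCCAC, found in 1.24%, was in the Stard3 window alone of these 8. Stard4, Stard10 and Stard3nl had no match to any of these motifs, but not all of them had a window. Whether the element stands at Stard4 is therefore not stated here. These matches describe letters in the windows and not bound sites.

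The phosphatidylcholine carriers were Stard7, Pctp and Stard10. STARD7 carries phosphatidylcholine to mitochondria, where a form of it is imported and cleaved by the protease PARL. Stard7 had log2 levels of 9.10, 8.89 and 8.58 in the knockdown arrays, against 6.27, 5.93 and 6.19 in the control arrays. Every knockdown array was higher than every control array by more than 2 on the log2 scale. The group means were 8.86 ± 0.26 in knockdown and 6.13 ± 0.18 in control (SD, n = 3 each), a log2 difference of 2.73, or 6.62-fold. Same-numbered arrays differed by 2.83, 2.96 and 2.39.

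**Figure D1:**
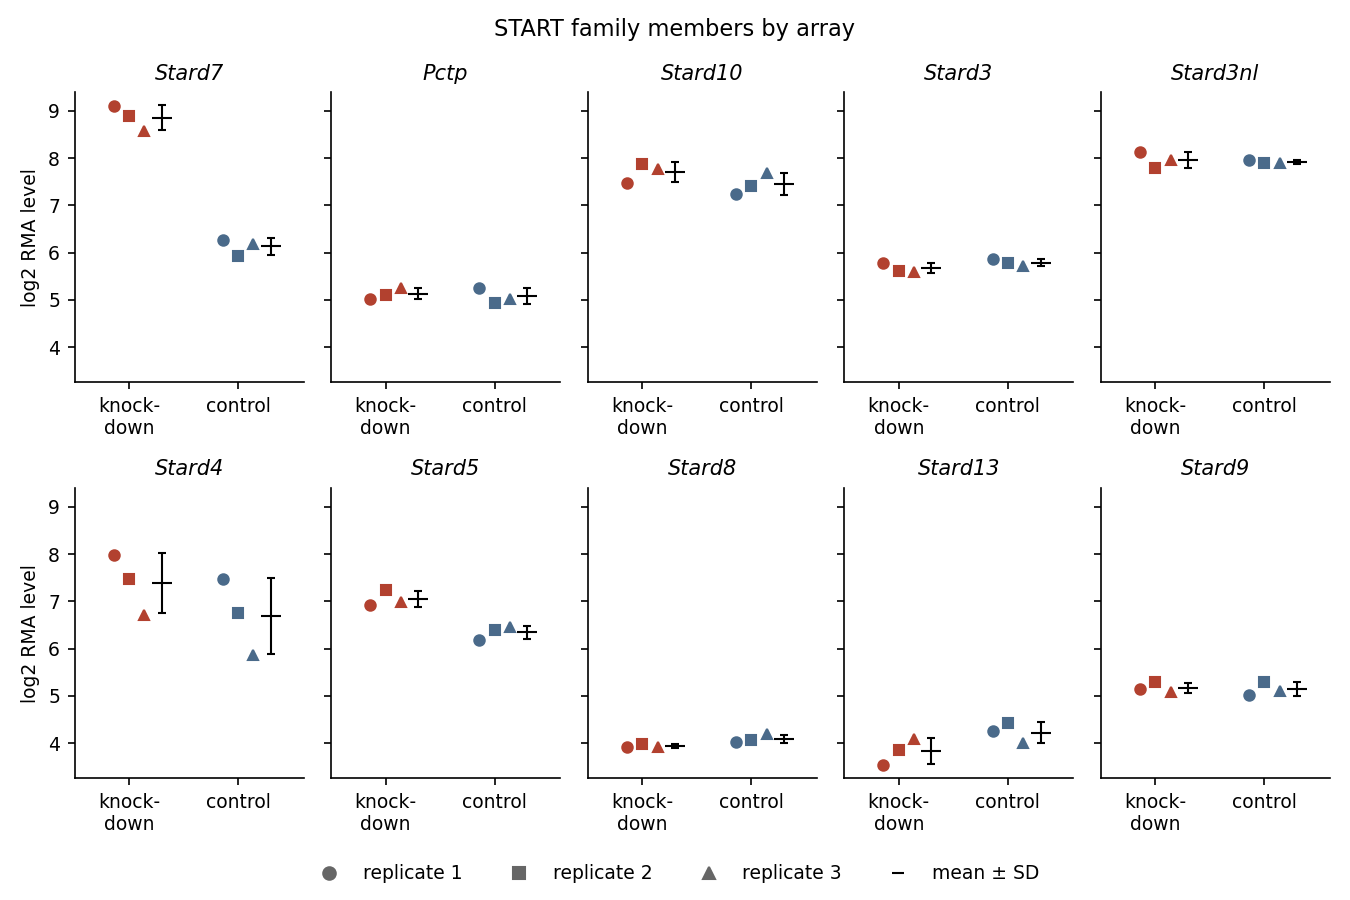
Log2 RMA level of the 10 genes in each array, knockdown left of control in each panel, with symbols for the replicate number and the mean ± SD (n = 3) beside the points. Stard7 lies between 8.58 and 9.10 in knockdown and between 5.93 and 6.27 in control arrays, Stard5 is separated by less, and in Stard4 the arrays of each group are spread widely.

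Pctp, the phosphatidylcholine transfer protein that consists of little more than a START domain, had levels of 5.03, 5.11 and 5.26 in knockdown and 5.26, 4.93 and 5.03 in control arrays. The groups overlapped throughout, and the log2 difference was 0.06 with a 95% interval of -0.22 to 0.34 and an adjusted p of 0.846. Stard10, which binds phosphatidylcholine and phosphatidylethanolamine, had levels of 7.47, 7.87 and 7.77 in knockdown and 7.23, 7.41 and 7.69 in control arrays. Its groups also overlapped, with a log2 difference of 0.26 (95% interval -0.09 to 0.61, adjusted p = 0.403). The interval for Pctp keeps its fold between 0.860 and 1.26, and that for Stard10 between 0.937 and 1.53.

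The sterol carriers were Stard3, Stard4 and Stard5. STARD5 is a small soluble protein of the cytosol that binds cholesterol and bile acids. Stard5 had levels of 6.93, 7.25 and 6.99 in the knockdown arrays, against 6.18, 6.39 and 6.46 in the control arrays. The groups did not overlap, and the lowest knockdown array was above the highest control. Means were 7.06 ± 0.17 in knockdown and 6.34 ± 0.15 in control (SD, n = 3 each), and the rise of 0.71 on the log2 scale (SE 0.13, 95% interval 0.42 to 1.00), or 1.64-fold, had an adjusted p of 0.0134 by limma. The adjusted p was 0.0548 without knockdown replicate 2, 0.0565 without control replicate 2 and 0.0567 with the RNA integrity number as a covariate, so the call was lost in those fits while the difference stayed between 0.62 and 0.78 with any array left out. That number, a score of how intact the RNA is, ran from 9.0 to 9.3 over knockdown RNA and from 8.8 to 9.2 over control RNA, and its part in the values was not tested beyond that fit.

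STARD4 moves cholesterol between the plasma membrane, endosomes and the endoplasmic reticulum, and in mouse its gene is a target of the sterol-sensing factor SREBP-2. Stard4 had levels of 7.97, 7.48 and 6.71 in the knockdown arrays, against 7.47, 6.75 and 5.87 in the control arrays. The groups overlapped, but each knockdown array was above the control with the same replicate number, by 0.50, 0.73 and 0.84. Without regard to the numbers the log2 difference of 0.69 had an SE of 0.42 and an adjusted p of 0.424. With the replicate number as a block the SE was 0.11 and the adjusted p 0.0101, and Stard4 passed the test. The SD within groups was 0.64 in knockdown and 0.80 in control arrays, and the difference ran from 0.28 when control replicate 3 was left out to 1.08 without control replicate 1, with 0.40 once knockdown replicate 1 was omitted.

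The wide spread of Stard4 was compared with that of other genes as a description. The 5 genes whose levels over the 6 arrays had the highest Pearson correlation with Stard4, a list added after its values were seen, were Rtn4r, Rgs14, Taok2, Acvr1b and Sqle, with r from 0.990 to 0.996, and of these Sqle acts in sterol synthesis. These correlations describe 6 arrays that also share their culture and processing, and are given without a test. Sqle, squalene epoxidase, had levels of 10.92, 10.46 and 10.17 in knockdown and 10.56, 10.09 and 9.55 in control arrays. Fdps, farnesyl diphosphate synthase and number 7 in the same ranking (r = 0.990), had 10.31, 9.78 and 9.25 in knockdown and 9.65, 9.22 and 8.41 in control arrays. In both genes, as in Stard4, the array numbered 1 was the highest of its group and the array numbered 3 the lowest, in knockdown and in control alike. Hmgcs1, the synthase that makes the precursor of mevalonate, ranked number 36 (r = 0.980). Insig1, another sterol-regulated gene, ranked number 3249 (r = 0.629), with 10.49, 10.47 and 10.09 in knockdown and 9.39, 9.28 and 9.34 in control arrays. By limma without the block Insig1 was called, higher by 2.02-fold (adjusted p = 0.00344). Sqle, Fdps and Hmgcs1 were not, with overlapping groups and adjusted p-values of 0.412, 0.312 and 0.263. With the block these were 0.0371, 0.00872 and 0.0194. Fdps, Hmgcs1 and Insig1 were named after their values were seen, so they are no evidence that sterol genes as a group share the spread of Stard4.

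**Figure D2:**
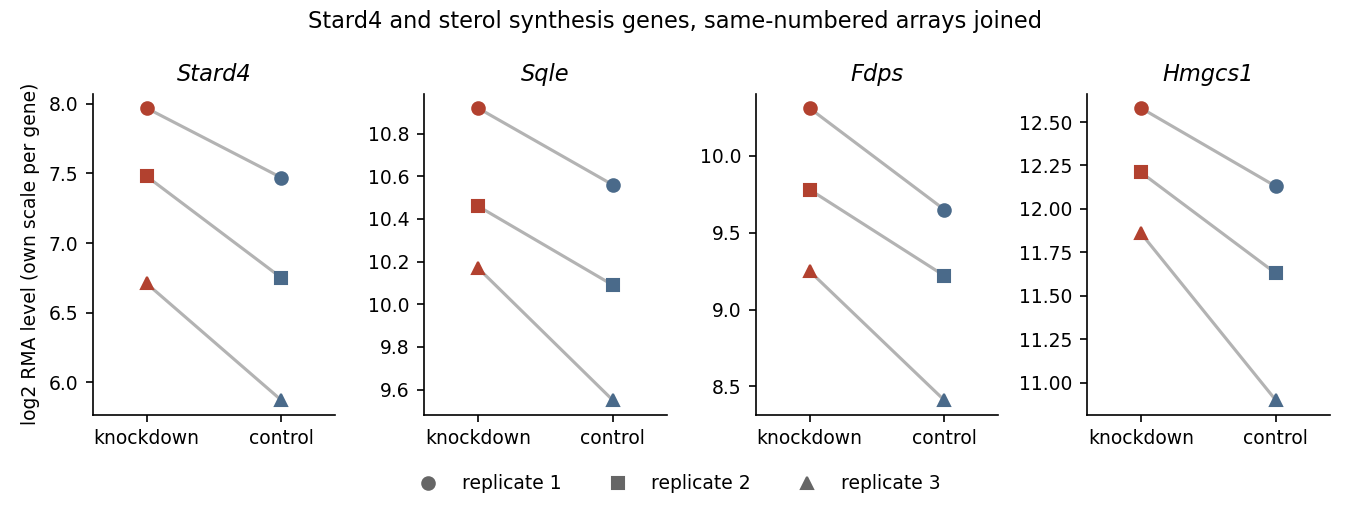
Log2 RMA level of Stard4, Sqle, Fdps and Hmgcs1, each on its own scale, knockdown left of control, with lines joining arrays of the same replicate number. Every line runs down towards control, and the 3 lines of a panel keep their order while their heights differ, for Stard4 from 7.97 to 6.71 over the knockdown arrays. The groups overlap in every panel, and none of these genes was called without the replicate block.

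STARD3 sits in the membrane of late endosomes and hands cholesterol across contacts with the endoplasmic reticulum. Stard3 had levels of 5.79, 5.62 and 5.60 in knockdown and 5.86, 5.78 and 5.72 in control arrays. The groups overlapped, with a log2 difference of -0.12 (95% interval -0.35 to 0.12, adjusted p = 0.599). Stard3nl, which tethers endosomes to the endoplasmic reticulum through its MENTAL domain, had 8.12, 7.79 and 7.96 in knockdown and 7.96, 7.89 and 7.90 in control arrays. Its control arrays lay inside the range of its knockdown arrays, and the log2 difference was 0.04 (95% interval -0.22 to 0.30, adjusted p = 0.891).

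Stard8 and Stard13 encode GTPase-activating proteins that end in a START domain, relatives of the tumour suppressor Dlc1. Stard8 had levels of 3.91, 3.99 and 3.93 in knockdown and 4.02, 4.06 and 4.19 in control arrays. The groups did not overlap, but the log2 difference was small at -0.15 (95% interval -0.37 to 0.07, adjusted p = 0.460). Stard13 had 3.54, 3.86 and 4.09 in knockdown and 4.26, 4.42 and 4.00 in control arrays. Knockdown replicate 3 lay above control replicate 3, and the log2 difference of -0.40 (95% interval -0.78 to -0.01) did not pass, with an adjusted p of 0.220. Both genes lay near the array medians of 4.03 to 4.11 over all probe sets, and whether they were above background was not tested, so a larger change in their RNA may be understated here.

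STARD9 is a kinesin of the mitotic centrosome with a START domain at its end. Stard9 had levels of 5.15, 5.29 and 5.08 in knockdown and 5.02, 5.30 and 5.11 in control arrays. The groups overlapped and the log2 difference was 0.03 (95% interval -0.23 to 0.29, adjusted p = 0.921). It was the only member with a second probe set, which lay just outside the rule because it was dimmer, with a mean of 4.26 against 5.16 over the 6 arrays. That probe set read 4.38, 4.32 and 4.29 in knockdown and 4.19, 4.18 and 4.17 in control arrays, a log2 difference of 0.15 with an adjusted p of 0.420 over all probe sets.

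Of the 9 members other than Stard7, 1 rose and 0 fell, and 8 stayed short of the threshold, where 7.80% of all 22180 genes were called, 4.17% higher and 3.64% lower. Their log2 differences ran from -0.40 to 0.71 with a median of 0.04, beside a median of 0.00 over all genes. By limma 2 of the 9, Stard5 and Stard13, had an unadjusted p under 0.05. The share of all genes under that limit was not counted, so nothing is read from it. The groups did not overlap for 2 of the 9, Stard5 and Stard8, where 25.5% of all genes did not overlap. With the replicate block 2 of the 9 were called, Stard5 and Stard4, where 11.7% of all genes were. Counts of 1 and 2 among 9 genes are too few to tell whether they differ from the shares over all genes. No filter on low values was used, and 8 of the 10 members had a mean level of 5 or more over all arrays.

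The family has further START genes, of which 6 were measured. The test passed 2 of them, both lower in knockdown, and 0 higher. That is 33.3% of only 6 genes, beside 7.80% of all genes called and 3.64% called lower. Acot11, a thioesterase that splits fatty acyl-CoA and ends in a START domain, had levels of 5.52, 5.24 and 5.42 in knockdown and 5.90, 5.75 and 6.04 in control arrays. It fell by 0.50 on the log2 scale (adjusted p = 0.0424). Dlc1 had 7.48, 7.38 and 7.35 in knockdown and 7.78, 7.79 and 7.76 in control arrays, and fell by 0.37 (adjusted p = 0.0471). The groups of both genes stood apart, but the calls were lost without each array in turn, with adjusted p-values of 0.0558 to 0.148 for Acot11 and 0.0719 to 0.158 for Dlc1, and with median centring of the arrays. Cert1, which carries ceramide from the endoplasmic reticulum to the Golgi, had a log2 difference of -0.16 (95% interval -0.40 to 0.07, adjusted p = 0.439). Star, the founding member that feeds cholesterol to steroid-making mitochondria, had 0.05 (adjusted p = 0.916), Stard6 0.26 (adjusted p = 0.380) and Acot12 -0.19 (adjusted p = 0.393), all at mean levels of 3.50 to 4.24.

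**Figure D3:**
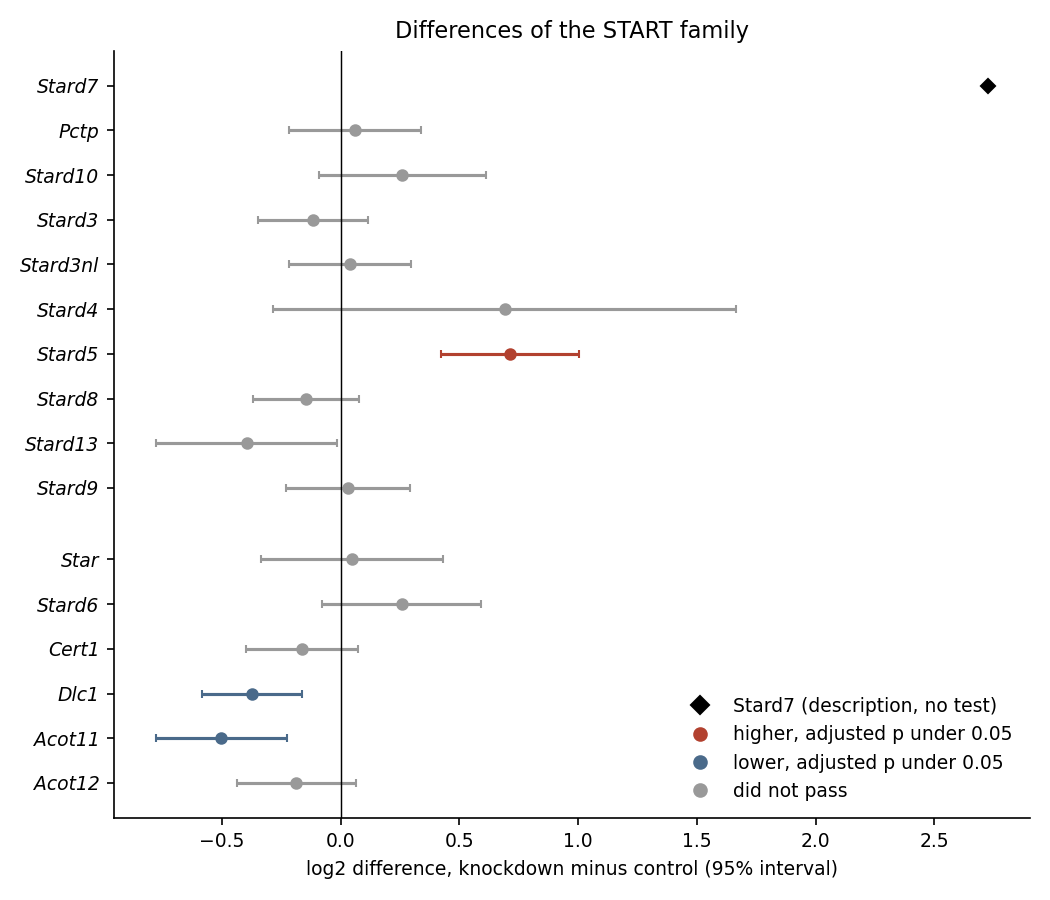
Log2 difference, knockdown minus control, for the 10 members and, below a gap, the 6 further START genes, with 95% intervals from the fit across all genes except for Stard7, which is a description. Stard7 at 2.73 stands right of all others, Stard5 at 0.71 has an interval above 0, the interval of Stard4 is the widest, and Dlc1 and Acot11 lie below 0.

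The genes beside Stard7 on chromosome 2 had small differences. The 3 tested genes before it were Snrnp200, Ciao1 and Tmem127, and the 3 after it Dusp2, Astl and Gpat2, in the order of the RefSeq gene table of GRCm38.p6. Ciao1, an assembly factor for cytosolic iron-sulfur proteins, had levels of 8.89, 8.83 and 8.66 in knockdown and 8.84, 8.58 and 8.80 in control arrays. Tmem127, a membrane protein of endosomes and the nearest tested gene before Stard7, had 7.99, 7.91 and 7.87 in knockdown and 8.09, 8.31 and 8.05 in control arrays. Its groups were apart in the direction opposite to Stard7, with a log2 difference of -0.23 (adjusted p = 0.282). Over the 6 neighbours, log2 differences ran from -0.32 for Astl to 0.24 for Dusp2 and 0 were called by limma, with adjusted p-values of 0.282 to 0.908 and unadjusted p-values of 0.0672 to 0.767.

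**Figure D4:**
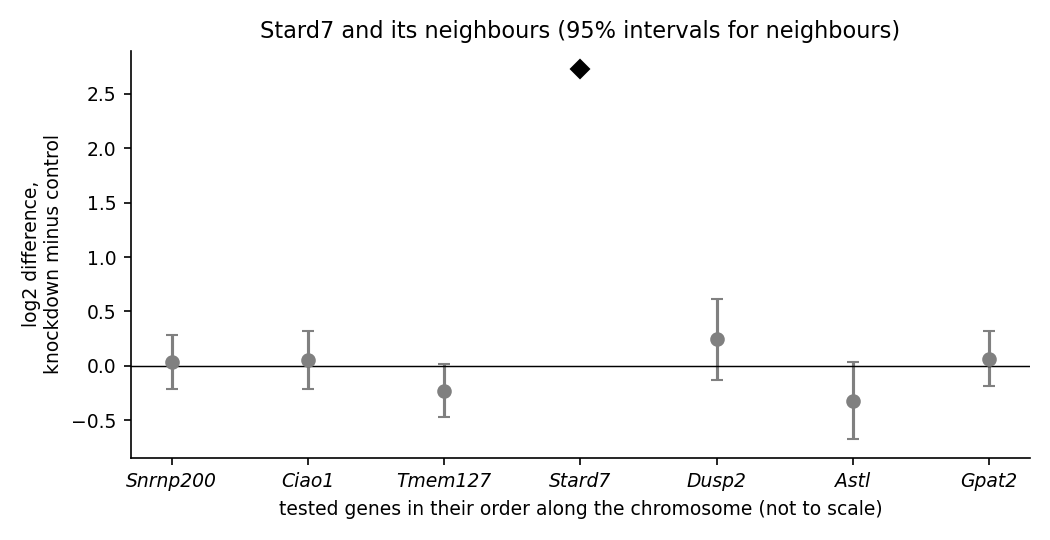
Log2 difference, knockdown minus control, for Stard7, shown without an interval, and with 95% intervals for the 3 tested genes on each side, in their order along the chromosome and not to scale. The 6 neighbours lie between -0.32 and 0.24, and Stard7 stands at 2.73.

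The genes whose levels over the 6 arrays were most like those of Stard7 by Pearson correlation were Leprotl1, Chfr, Sec23a, Lnpk and Ppp1r9a, with r from 0.997 to 1.00. Their products are known from endosomal sorting (Leprotl1), ubiquitin ligation (Chfr), the coat of vesicles that leave the endoplasmic reticulum (Sec23a), the junctions of its tubules (Lnpk) and the actin cytoskeleton of spines (Ppp1r9a). Leprotl1 had levels of 9.84, 9.78 and 9.60 in knockdown and 8.61, 8.47 and 8.61 in control arrays, a log2 difference of 1.18, which is smaller than that of Stard7. With 2 groups far apart such a correlation is high for any gene with a similar split, and it is given as a description of 6 arrays.

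Genes of phosphatidylcholine and phosphatidylethanolamine synthesis, which make the lipids that STARD7, PCTP and STARD10 carry, numbered 20 measured. Of these 1 rose, 1 fell and 18 did not pass, which is 2 of 20 called beside 7.80% of all genes, with a median log2 difference of 0.04. Under a filter at a mean level of 5, 12.5% of 16 were called, beside 19.4% of all 11238 such genes. Pcyt1a, the rate-limiting enzyme of phosphatidylcholine synthesis, had levels of 6.90, 7.09 and 7.12 in knockdown and 6.59, 6.61 and 6.65 in control arrays. It rose 1.34-fold (adjusted p = 0.0432). Slc44a1, a choline transporter of the plasma membrane and mitochondria, had 7.39, 7.17 and 7.40 in knockdown and 8.02, 7.91 and 7.95 in control arrays. It fell 1.56-fold (adjusted p = 0.00963). The groups of both stood apart. The call of Slc44a1 held with any array left out, that of Pcyt1a was lost without every array but knockdown replicate 1, and both were lost with RNA integrity as a covariate.

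A list of mitochondrial lipid genes and partners of STARD7 held its protease Parl, the phosphatase Pgam5 that PARL also cleaves, other intermembrane lipid carriers and the coenzyme Q genes. Of 28 measured, 3 rose, 2 fell and 23 did not pass, which is 17.9% called beside 7.80% of all genes. When genes at a mean level of 5 or more were tested alone, 33.3% of 27 were called, beside 19.4% of all 11238 such genes. Parl had levels of 7.76, 7.90 and 7.62 in the knockdown arrays, against 8.42, 8.61 and 8.77 in the control arrays. All knockdown arrays were lower, and Parl fell by 0.84 on the log2 scale or 1.79-fold (SE 0.13, adjusted p = 0.00669). Pgam5 had 8.73, 8.84 and 8.62 in knockdown and 8.34, 8.11 and 7.89 in control arrays. It rose 1.53-fold (adjusted p = 0.0299), a call lost without every array but control replicate 1.

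Triap1, the partner of the PRELI carriers that move phosphatidic acid for cardiolipin, had levels of 7.79, 7.71 and 7.70 in knockdown and 6.78, 7.02 and 6.88 in control arrays. It rose 1.79-fold (adjusted p = 0.00302). Coq5, a methyltransferase of coenzyme Q synthesis, rose 1.58-fold (adjusted p = 0.00852). Opa1, the dynamin-like protein of the inner mitochondrial membrane, fell 1.36-fold (adjusted p = 0.0435). That call was lost without every array but knockdown replicate 1, with median centring and with RNA integrity as a covariate. Parl, Triap1 and Coq5 kept their calls with any array left out and with RNA integrity as a covariate.

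Other lipid transfer proteins and tethers of membrane contacts had 5 genes higher and 6 lower of 39 measured, with 28 that did not pass and a median log2 difference of 0.03. That is 28.2% called, beside 7.80% of all genes. When genes at a mean level of 5 or more were tested alone, 7 were higher and 6 lower of 36 measured, or 36.1%, beside 19.4% of all such genes. Pitpnb, a phosphatidylinositol transfer protein of the Golgi, had levels of 8.55, 8.50 and 8.54 in knockdown and 9.48, 9.52 and 9.41 in control arrays. It fell 1.92-fold (SE 0.09 on the log2 scale, adjusted p = 0.00128). Pitpnm2, of the same lipid transfer family, fell 1.75-fold (adjusted p = 0.00690), and Npc2, the soluble cholesterol carrier of lysosomes, 1.57-fold (adjusted p = 0.00939).

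In the other direction Plekha8, which brings glucosylceramide to the Golgi, had levels of 5.98, 5.91 and 5.90 in knockdown and 5.15, 5.28 and 5.17 in control arrays. It rose 1.66-fold (adjusted p = 0.00361). Gltp, the glycolipid transfer protein, rose 1.85-fold (adjusted p = 0.0146) and Osbpl5, which moves phosphatidylserine at the plasma membrane, 1.48-fold (adjusted p = 0.0161). The other 5 called genes, named after their values were seen, were Gramd1b, Osbpl6 and Npc1, which were lower, and C2cd2l and Vps13b, which were higher. Gramd1b, a carrier of plasma membrane cholesterol, had a log2 difference of -0.83, and Npc1, the lysosomal cholesterol exporter, of -0.59. The calls of Pitpnb, Pitpnm2, Npc2 and Plekha8 held with any array left out, that of Osbpl5 was lost without control replicate 2, and those of Gltp and Gramd1b were lost on removal of any 1 of control replicate 2 and knockdown replicates 2 and 3. The call of C2cd2l was lost without each array in turn, that of Osbpl6 without every array but knockdown replicate 1, that of Vps13b without every array but knockdown replicate 2 and that of Npc1 without every array but control replicate 1. With RNA integrity as a covariate the calls of these 4 genes and of Npc2, Gltp and Gramd1b were lost, and with median centring those of Osbpl6, Npc1 and Vps13b. The call of Npc1 was also lost when the probe sets of a gene were averaged.

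**Figure D5:**
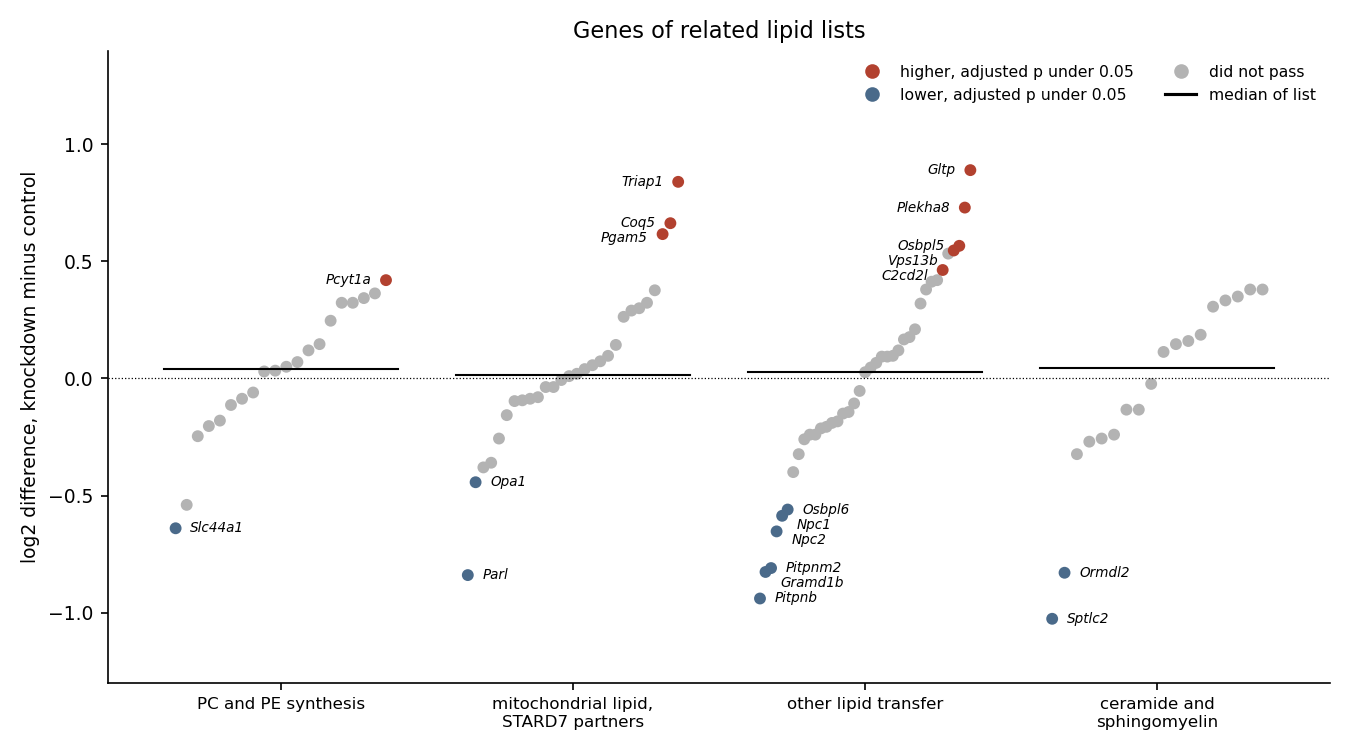
Log2 difference, knockdown minus control, of every measured gene in 4 lists of related genes, sorted within each list, with called genes coloured and named and a bar at the list's median. The list medians lie between 0.015 and 0.045, and called genes are found on both sides of 0 in 3 of the 4 lists.

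Among 18 measured genes of ceramide and sphingomyelin synthesis, which supply and use the cargo of CERT, 0 rose, 2 fell and 16 did not pass, which is 11.1% called beside 7.80% of all genes. Under the filter at a mean level of 5, 21.4% of 14 were called, beside 19.4% of all such genes. Sptlc2, a catalytic subunit of serine palmitoyltransferase that starts sphingolipid synthesis, had levels of 8.57, 8.18 and 8.14 in knockdown and 9.31, 9.26 and 9.40 in control arrays. It fell 2.04-fold (SE 0.13 on the log2 scale, adjusted p = 0.00368). Ormdl2, of the family that restrains that enzyme, had 6.08, 6.42 and 6.25 in knockdown and 7.10, 7.08 and 7.06 in control arrays. It fell 1.78-fold (adjusted p = 0.00426). The groups of both genes were well apart, and both calls held with any array left out.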

How the data were processed

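Expression was measured on 6 Affymetrix arrays, 3 of Diras2 knockdown and 3 of scrambled control samples. The deposited values are log2 levels per probe set. Per the submitters' processing notes, the authors used RMA and version 1.2.1.20 of Affymetrix Expression Console. They run from 1.47 to 14.09. Probe-level intensities and detection calls were not used, so background correction could not be repeated, and the normalisation would hide a shift common to most genes. Precision is limited by the number of arrays.

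Of 41345 probe sets, 23521 had 1 gene symbol, 1814 several and 16010 none. The brightest probe set per gene gave 22180 genes, of which 21994 matched the RefSeq gene table of GRCm38.p6 by Entrez number. Knockdown minus control was fitted with limma 3.58.1 (lmFit and eBayes, R 4.3.3), with Benjamini-Hochberg adjustment over all genes. The fit was also run on simulated data, drawn for each array independently and so without pairs, and the outcome is not reported here. Figures were drawn with matplotlib 3.10.9. The labels name biological replicates without separate cultures or litters, so the spread behind the p-values may be technical.

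The members, the 5 lists of related genes and the 9 marker lists were chosen with earlier results of these data known. Named were Diras2, every member, up to 6 called genes per list by smallest p, the 5 genes most like Stard7 by Pearson correlation and 3 tested neighbours per side. A further list is not reported here.

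Groups share replicate numbers. Deviations from the group means correlated at 0.43, 0.12 and 0.37 for same-numbered arrays and at -0.38 to 0.06 for the others. Each same-numbered value is above 0.1, so the replicate number was added as a block in an alternative fit, on the data and not on the labels. The main fit had no block, so calls and adjusted p-values given without mention of the block ignore the numbers. Blocked values are printed where they change a call of a member or marker. The other alternatives were leaving out each array, quantile normalisation, median centring, a filter at a mean level of 5, an intensity trend, the RNA integrity number as a covariate, averaging the probe sets of a gene and, for members, a threshold of 0.1.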

Additional observations from a re-analysis of the deposited data

How the results depend on the processing

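The Stard7 difference, by which the gene was chosen, lay between 2.61 and 2.87 on the log2 scale with each array left out, a range that is no support for it. Among the other 9 members, the count of genes higher in knockdown was 2 with the replicate block, which changed the call of Stard4 alone, and 0 once RNA integrity was a covariate. It ran from 0 to 1 with an array left out; the count of lower genes was 0 throughout. At a threshold of 0.1 the counts were again 1 and 0. The sign turned for 3 members that were not called: Pctp had -0.0246 with RNA integrity as a covariate and ran from -0.0117 (without control replicate 2) to 0.153 with an array left out, Stard3nl from -0.0417 (without knockdown replicate 1) to 0.123, and Stard9 from -0.0317 (without control replicate 1) to 0.108.

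Over all genes, 924 were higher and 807 lower; counts were 402 and 356 with RNA integrity as a covariate, 1252 lower with the replicate block, and 383 to 800 higher and 306 to 687 lower with an array left out, fewest without control replicate 2. The further START genes called lower numbered 0 with median centring, 0 with the integrity covariate, 1 with an intensity trend and 0 without any 1 array. In the phosphatidylcholine list 2 were lower with the replicate block while RNA integrity as a covariate left 0 higher and 0 lower, and 0 to 1 were higher with an array left out. In the mitochondrial list 6 were higher under the filter at a mean level of 5, and 1 was lower with median centring as well as with the integrity covariate. With an array left out 2 to 3 were higher and 1 to 2 lower. In the lipid transfer list 2 were higher and 2 lower with the integrity covariate, and 1 to 5 higher and 3 to 5 lower with an array left out. In the ceramide list 1 was higher with the replicate block, under the filter and with an intensity trend. Of the 22 list genes called, 10 kept the call with each array left out in turn, 13 lost it with RNA integrity as a covariate and 22 kept it with the replicate block. The cause of these shifts was not tested.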
